A study of Mus musculus with 4 samples.

Results

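Gene expression in CD8+ T cells of the responder was compared after against before therapy with an antibody to PD-1. The comparison takes 2 of the 4 libraries of the series: the library labelled responder, after therapy, and the library labelled responder, before therapy. The other two libraries carry the same times for a non-responder, and they serve here only as values to set beside. Every group is 1 library. In each, CD8+ T cells with high CD11a had been flow-sorted from patients' peripheral blood, and RNA was sequenced from 1 ng of total RNA per library. A cycle of the antibody was 4 doses, 3 weeks apart. The labels name no dose, disease, second drug or culture step for any group.

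The labels limit what the pair can show. They do not say that the blood before and after therapy came from the same patient, and the series design speaks of 2 cohorts without tying them to libraries. The treatment text places every collection after a cycle of therapy, whereas the group label places 2 of the 4 libraries before therapy; the latter was used. The names of the libraries from before therapy hold a PD-1-positive tag that the names of the later libraries lack, and whether the gate also used PD-1 is not stated. The organism field reads mouse, but the files list human genes on the human build hg38, so the data were read as human. Time, tag and depth differ between the 2 responder libraries, the patient may differ too, and these cannot be told apart.

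PD-1, encoded by PDCD1, is an inhibitory receptor that recruits phosphatases to the T cell receptor and to CD28 and so dampens signalling. Antibodies that block it act on antigen-experienced CD8+ T cells, which carry more of the integrin chain CD11a, encoded by ITGAL, than naive cells do. In blood such cells range from memory-like cells with the factor TCF7 and the lymph node receptor CCR7 to cytotoxic cells with the fractalkine receptor CX3CR1, granzymes and perforin.

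The responder libraries held 78912300 counts before and 129773591 counts after therapy, and the non-responder libraries 65500644 and 115446087. Levels are given as CPM, the usual depth-scaled count, with library sizes adjusted by the trimmed mean of M-values (TMM). With this scaling 1 count is 0.0121 CPM in the responder library before and 0.00793 CPM after therapy. A log2 ratio above 0 means a higher level after therapy, and its 95% interval covers counting error only. With no replicate there is no p-value, and a difference between these libraries is not shown to exceed the spread between samples of a group. Because the samples are bulk RNA, fewer cells of a type and less RNA per cell cannot be told apart. Mitochondrially encoded RNA made up 4.03% of counts before and 3.37% after therapy in the responder, and the nuclear RNA MALAT1 1.47% and 1.62%.

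Most genes of the responder pair lay within 2-fold of each other. Of 12287 genes that reached 5 CPM in either library, 1064 (8.66%) stood at least 2-fold higher and 566 (4.61%) at least 2-fold lower after therapy. The median log2 ratio over these genes was 0.08. Scaled by library size alone, the median was -0.04, and 799 genes were higher and 750 lower, so the share of higher genes went from 65.3% to 51.6% of those past 2-fold. Among 17101 genes with at least 1 CPM, which is the background for the gene lists below, 1822 (10.7%) were at least 2-fold higher and 1791 (10.5%) lower, with a median of 0.03. The counts of every list below stand beside these shares, also where the shares are not repeated. The share past 2-fold depended on the level: it was 36.2% of 4407 genes with a mean of 1 to 5 CPM, and 7.66% of 222 genes with a mean of at least 500 CPM. In the non-responder pair, 16.3% of 12615 genes with at least 5 CPM were at least 2-fold higher and 7.56% lower.

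**Figure D1:**
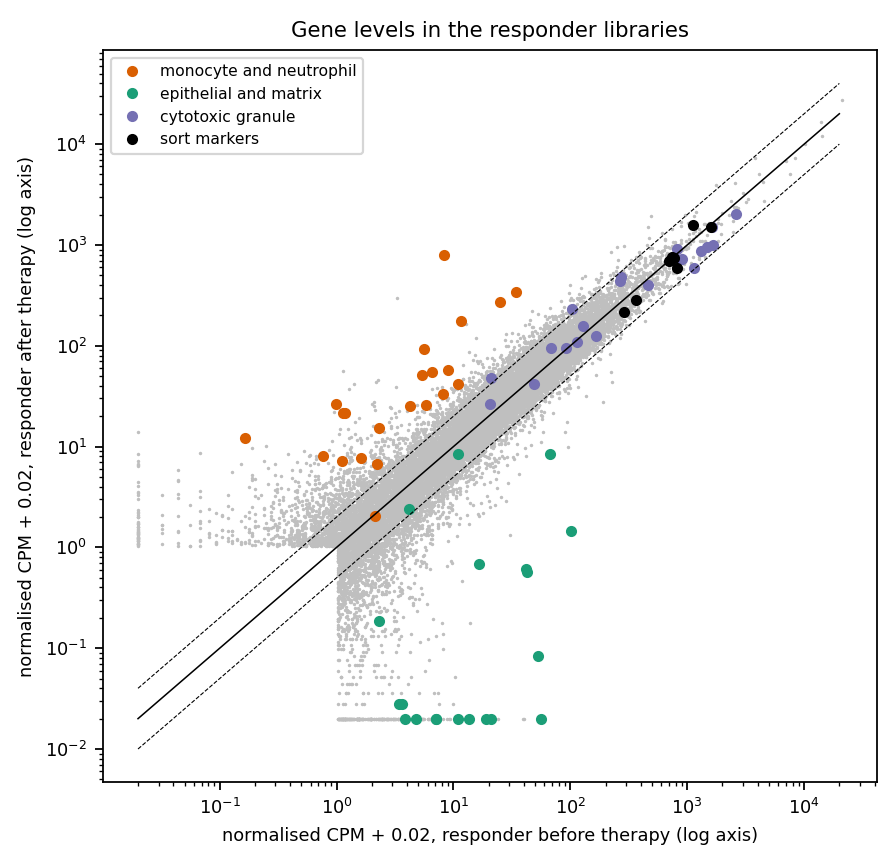
Normalised CPM of each gene in the responder library before (horizontal, log axis) and after therapy (vertical, log axis), with 0.02 CPM added so that counts of 0 can be drawn. Grey points are genes that reached 1 CPM in either library, coloured points are 4 gene lists, the solid line marks equal levels and the dashed lines 2-fold. The 8 sort markers lie between the dashed lines, 21 of 22 monocyte and neutrophil markers lie above them and 18 of 20 epithelial and matrix markers below them.

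The 2 responder libraries were close in the list called sort markers here. The labels give the sort by CD8 and CD11a, and the list also holds CD3D, CD3E, CD3G, CD247 and ITGB2. All 8 sort markers were within 2-fold, with a median log2 ratio of -0.07 (-0.18 by library size alone) and a summed level of 6391 CPM before and 6354 CPM after therapy. CD8A (ENSG00000153563, hg38 chromosome 2: 86784610 to 86808396), which encodes a CD8 chain, stood at 1115 CPM before and 1576 CPM after therapy. Its partner chain CD8B stood at 694.8 and 699.3 CPM, and ITGAL at 768.8 and 747.4 CPM. The T cell receptor subunit CD3E stood at 733.4 and 758.1 CPM, while CD3D, another subunit, stood at 824.7 and 585.3 CPM. The markers of the labelled cell type were thus abundant in both libraries. Markers of other cells differed by far more between the same libraries. The summed level of 22 monocyte and neutrophil markers was 147.8 CPM before and 2094 CPM after therapy, and that of 24 epithelial and matrix markers 489.7 and 23.7 CPM. These values are described with their genes further on, and their part in the gene groups that come before was not tested.

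**Figure D2:**
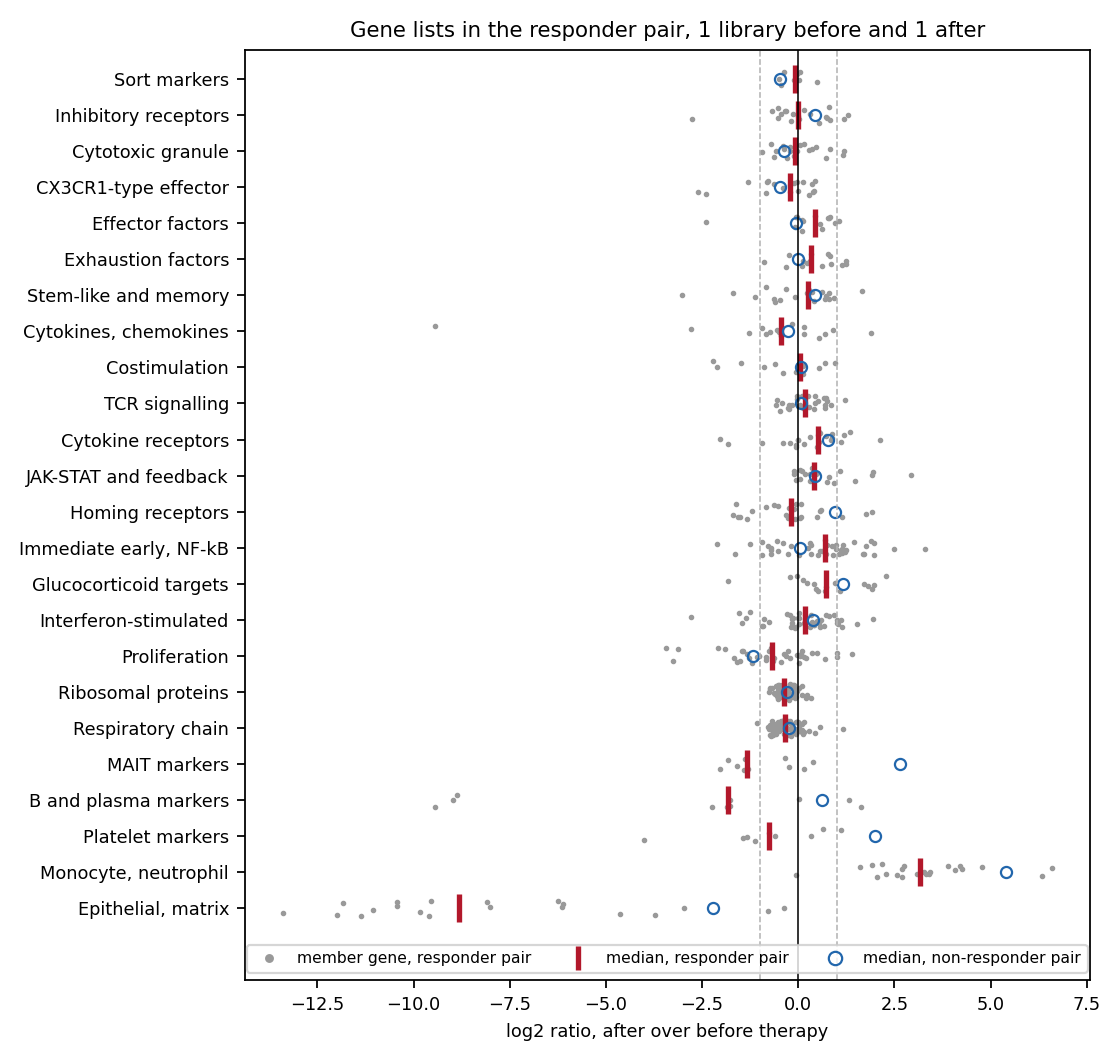
Log2 ratio, after over before therapy, of each detected member of 24 gene lists in the responder pair (grey points), with the list's median (red bar) and its median in the non-responder pair (blue circle). Dashed lines mark 2-fold, and the place of a member with a count of 0 depends on the prior count of 0.5. The immediate early list has a median of 0.70, the proliferation list of -0.69, and the monocyte and neutrophil list of 3.17.

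Inhibitory receptor genes had no common direction. Of 20 members with at least 1 CPM, 2 were at least 2-fold higher and 1 at least 2-fold lower after therapy, and the median log2 ratio was 0.01 (-0.10 by library size alone). PDCD1 (ENSG00000188389, chromosome 2: 241849881 to 241858908) stood at 31.6 CPM before and 28.9 CPM after therapy, a log2 ratio of -0.12. TIGIT, a receptor that competes with CD226 for its ligands, stood at 160.6 and 232.4 CPM. LAG3, which binds MHC class II, stood at 106 and 85.3 CPM, and HAVCR2, the gene of TIM-3, at 45.9 and 33.9 CPM. The members past 2-fold were CD300A, an inhibitory receptor of lymphocytes and myeloid cells, at 75.1 and 185.4 CPM, CD200R1, the receptor for CD200, at 11.9 and 27.1 CPM, and LAYN at 3.77 and 0.547 CPM. Myeloid cells also express CD300A, and the monocyte markers were higher in the same library; their part in its value was not tested. Among 15 detected exhaustion-linked factors, 3 were at least 2-fold higher and 0 lower, against 10.7% and 10.5% of all genes, with a median of 0.33. TOX, a factor of chronically stimulated cells, stood at 85 and 72.2 CPM, whereas the orphan nuclear receptor NR4A2 stood at 28.8 and 62.9 CPM.

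Genes of cytotoxic granules were abundant at both times and mostly within 2-fold. Of 20 members, 2 were at least 2-fold higher and 0 lower, against 10.7% and 10.5% of all genes, and the median was -0.07. PRF1, the pore-forming perforin, stood at 1622 CPM before and 1503 CPM after therapy. The granzyme genes differed in direction. GZMB stood at 1306 and 874.2 CPM and GZMH at 1477 and 949.9 CPM, while GZMK, a granzyme of less differentiated memory cells, stood at 268.5 and 475.2 CPM. NKG7, a granule membrane protein, stood at 1644 and 1002 CPM, and the protease gene CTSW at 1137 and 594.4 CPM. The members past 2-fold were RAB27A and STX11. RAB27A, a GTPase that docks granules, stood at 104 and 232.5 CPM (log2 ratio 1.16, but 0.94 adjusted for gene length). STX11, a fusion protein, stood at 20.7 and 47.3 CPM. The summed level of the list was 13268 CPM before and 10821 CPM after therapy.

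The list of CX3CR1-type effector memory genes, found in circulating killer cells, leaned lower after therapy. Of 19 members, 0 were at least 2-fold higher and 3 lower, against 10.7% and 10.5% of all genes. The median was -0.21, and 13 members were below 0. CX3CR1 (ENSG00000168329, chromosome 3: 39263494 to 39281735) stood at 682.4 CPM before and 382.3 CPM after therapy, 1.78-fold lower (log2 ratio -0.84, interval -0.85 to -0.82). FGFBP2, a secreted protein of cytotoxic lymphocytes, stood at 434.7 and 175.6 CPM. ZNF683, the gene of the factor Hobit, stood at 227.4 and 43.3 CPM, 5.25-fold lower (log2 ratio -2.39, interval -2.44 to -2.35). B3GAT1, whose product makes the CD57 epitope of late-stage cells, stood at 6.48 and 1.06 CPM. Not all late-stage genes were lower: KLRG1 stood at 359.5 and 466.7 CPM and FCRL6 at 583.6 and 748 CPM.

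Factors of effector cells had a median on the other side of 0. ZNF683, TBX21 and ZEB2 are on both lists, and the ratio of ZEB2, 0.44, is the median of the effector factor list. Of 15 members, 1 was at least 2-fold higher, 1 was lower and 11 were above 0, with a median of 0.44. IRF1, a factor induced by interferons, stood at 391.9 and 809.8 CPM (log2 ratio 1.05, but 0.94 by library size alone). EOMES, a T-box factor of memory and effector cells, stood at 209.1 and 359.9 CPM, while TBX21, the gene of T-bet, stood at 230.3 and 251.4 CPM. ID2, which holds E proteins in check, stood at 477.8 and 926.2 CPM.

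Genes of stem-like and memory cells were mixed. Of 20 members, 1 was at least 2-fold higher and 3 lower, with a median of 0.25. CCR7 (ENSG00000126353, chromosome 17: 40553769 to 40565472), the receptor that guides cells into lymph nodes, stood at 165.2 CPM before and 51.4 CPM after therapy, 3.22-fold lower (log2 ratio -1.69, interval -1.73 to -1.64). ID3, a relative of ID2, stood at 5.14 and 0.626 CPM, and ACTN1, an actin cross-linker of naive cells, at 53 and 24.5 CPM. TCF7 itself stood at 109.6 and 189.4 CPM, and IL7R, the receptor for the survival cytokine IL-7, at 287.1 and 473.6 CPM. CCR7 and TCF7, both used as markers of less differentiated cells, thus stood on opposite sides of 0. BCL6, a repressor of effector genes that monocytes also express, stood at 6.52 and 20.6 CPM.

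**Figure D3:**
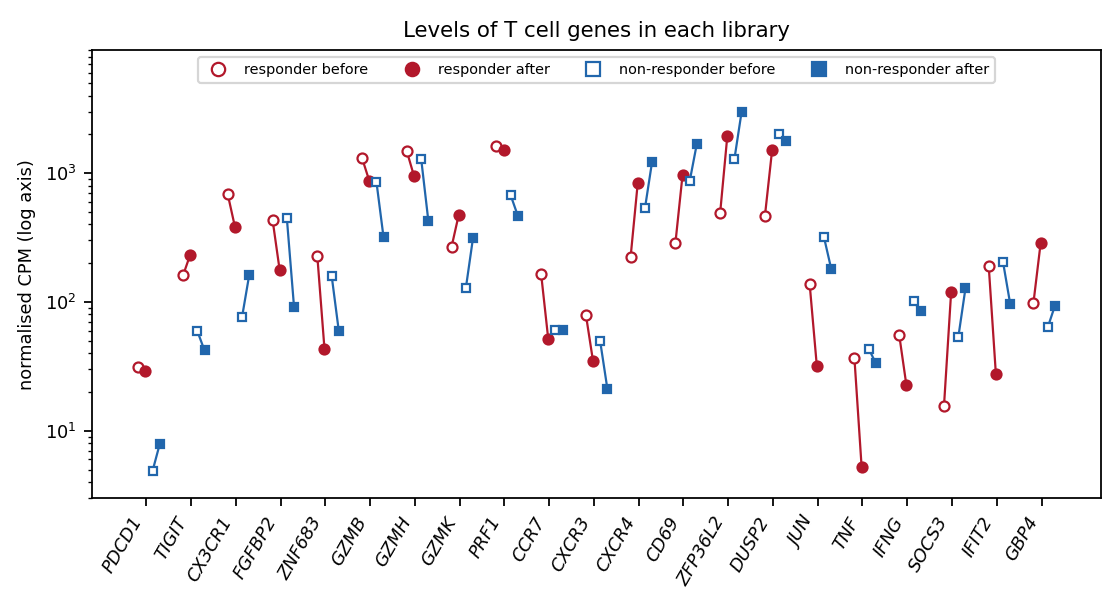
Normalised CPM (log axis) of 21 T cell genes in each library, with open symbols before and filled symbols after therapy, circles for the responder and squares for the non-responder, and lines joining the times. The genes were chosen after their values were seen. PDCD1 stands at 31.6 and 28.9 CPM in the responder, while SOCS3 stands at 15.5 and 118.9 CPM and TNF at 36.5 and 5.27 CPM.

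Cytokine genes were lower after therapy more often than higher, and XCL1 was the exception past 2-fold. Of 17 detected members, 1 was at least 2-fold higher and 3 lower, against 10.7% and 10.5% of all genes. The median was -0.46. TNF (ENSG00000232810, chromosome 6: 31575567 to 31578336) stood at 36.5 CPM before and 5.27 CPM after therapy, 6.92-fold lower (log2 ratio -2.79, interval -2.91 to -2.67). IFNG, the interferon of T cells, stood at 55.5 and 22.7 CPM, 2.44-fold lower. CSF2, the gene of GM-CSF, stood at 3.6 CPM before therapy and had no count after it. XCL1, a chemokine that attracts cross-presenting dendritic cells, stood at 11.5 and 42.3 CPM. The chemokine CCL5 was the most abundant member of the list, at 2459 and 1732 CPM, and CCL4 stood at 180 and 290.7 CPM.

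Costimulatory receptors differed in direction, with 3 genes of the TNF receptor family lower after therapy and CD28 and ICOS on the other side of 0. Of 15 members of the costimulation list, 0 were at least 2-fold higher and 3 lower, with a median of 0.04. The 3 were TNFRSF4, the gene of OX40, at 6.06 and 1.31 CPM, TNFRSF18, the gene of GITR, at 8.56 and 1.99 CPM, and TNFRSF25, a death domain receptor, at 95.3 and 34.1 CPM. CD27 stood at 176.1 and 114.8 CPM, whereas CD28 stood at 28 and 45 CPM and ICOS at 22.3 and 43.3 CPM. Proximal T cell receptor signalling genes were close to 0 as a list, with 1 of 28 members at least 2-fold higher, 0 lower and a median of 0.17 (-0.03 adjusted for gene length). The member past 2-fold was SH2D1A, the adaptor SAP, at 119.9 and 278.2 CPM. LCK, the kinase that starts the cascade, stood at 1290 and 1091 CPM.

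The list of immediate early and NF-kB genes, rapid targets of stimulation or stress, was higher after therapy as a whole but divided within. Of 45 detected members, 16 were at least 2-fold higher and 3 lower, against 10.7% and 10.5% of all genes. The median was 0.70, and 31 members were above 0. ZFP36L2 (ENSG00000152518, chromosome 2: 43222402 to 43226609), an RNA-binding protein that speeds the decay of cytokine messages, stood at 491.5 CPM before and 1940 CPM after therapy, 3.95-fold higher (log2 ratio 1.98, interval 1.97 to 2.00). CREM, a regulator of cAMP-responsive genes, stood at 19.3 and 75.6 CPM, and RGS1, which curbs chemokine receptor signalling, at 35.4 and 130.3 CPM. CD69, an early activation marker that holds cells in tissue, stood at 286.2 and 968.4 CPM. DUSP2, a phosphatase that acts on MAP kinases, stood at 464.7 and 1502 CPM, and TNFAIP3, the NF-kB inhibitor A20, at 235.5 and 506.4 CPM.

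Several genes usually induced together with these stood lower. JUN, part of AP-1, stood at 137.2 CPM before and 31.8 CPM after therapy, 4.32-fold lower (log2 ratio -2.11, interval -2.16 to -2.06). Its relative JUND stood at 161.2 and 93.8 CPM, while JUNB stood at 433.4 and 730.2 CPM and FOS at 202.9 and 301.3 CPM. NFKBIA, the inhibitor that NF-kB induces, stood at 381.2 and 231.9 CPM, and KLF6 at 1418 and 872.7 CPM. The early genes thus formed no single block within the list. EGR1, EGR2, EGR3 and NR4A3 stood under 5 CPM in both responder libraries, as did KLF4 at 0.447 and 4.4 CPM. Of these low members, EGR2, NR4A3 and KLF4 are among those counted as at least 2-fold higher in the list. ATF3, also under 5 CPM, is among those counted as lower.

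Glucocorticoid target genes were higher after therapy. Of 18 members, 6 were at least 2-fold higher and 1 lower, against 10.7% and 10.5% of all genes. The median was 0.71, and 15 members were above 0. This list shares members with other lists described here, among them CXCR4, ZFP36L2, DUSP1, IL7R, DDIT4, PER1 and ZBTB16. FKBP5, a chaperone of the receptor, stood at 103.8 and 220.6 CPM, and TSC22D3, the gene of GILZ, at 1014 and 1653 CPM. DDIT4, an inhibitor of mTORC1, stood at 67 and 235.3 CPM, and TXNIP, which restrains glucose uptake, at 3764 and 7331 CPM. The clock gene PER1 stood at 25.5 and 24.9 CPM, and ZBTB16, a factor of innate-like T cells, at 22.8 and 6.43 CPM. CD163, a member of this list and of the monocyte list, stood at 1.59 and 7.7 CPM. Of other members, KLF9 stood at 8.38 and 7.17 CPM and SGK1 at 8.75 and 9.61 CPM. In the non-responder pair FKBP5 stood at 27.2 and 152.5 CPM and TXNIP at 1971 and 7869 CPM. The ratios of the receptor gene NR3C1 and of ZBTB16 were below 0 there. The labels name no steroid treatment and no hour of blood draw, and a part of either was not tested. The circadian clock list had a median of -0.04 over 15 detected members, 1 at least 2-fold higher and 2 lower.

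Genes of cytokine signalling were mixed, with more members above 0 than below. Of 24 cytokine receptor genes, 4 were at least 2-fold higher and 2 lower, against 10.7% and 10.5% of all genes. Of these 24, 15 were above 0, and the median was 0.51 (0.40 by library size alone and 0.26 adjusted for gene length). TGFBR1, a kinase receptor for TGF-beta, stood at 67.1 and 145.7 CPM, and IL18R1 at 21.8 and 55.3 CPM. IL2RA, the high-affinity chain of the IL-2 receptor, stood at 1.69 and 7.36 CPM. IL23R, a receptor of innate-like T cells, stood at 5.55 and 1.34 CPM.

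Of 20 JAK-STAT and feedback genes, 5 were at least 2-fold higher and 0 lower, against 10.7% and 10.5% of all genes. The median was 0.41, and 17 members were above 0. SOCS3 (ENSG00000184557, chromosome 17: 78356778 to 78360077), which inhibits signalling downstream of IL-6, stood at 15.5 CPM before and 118.9 CPM after therapy, 7.69-fold higher (log2 ratio 2.94, interval 2.86 to 3.03). SOCS1, which inhibits JAK kinases, stood at 6.28 and 23.6 CPM, and BCL3, an atypical NF-kB inhibitor protein, at 13.2 and 36.5 CPM. CISH, a feedback inhibitor of IL-2 signalling, stood at 96.8 and 90.2 CPM. Myeloid cells express SOCS3 and BCL3 as well, the monocyte markers were higher in the same library, and their part in these values was not tested.

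Interferon-stimulated genes did not share a direction. Of 47 members, 7 were at least 2-fold higher and 5 lower, against 10.7% and 10.5% of all genes. The median was 0.17 (0.06 by library size alone). Among the 7 higher members were GBP1, GBP4, IFI44L, OAS3, SAMD9L and PARP9, and the 5 lower ones were IFIT1, IFIT2, IFIT3, ISG15 and CXCL10. GBP4 and GBP1, GTPases that interferon gamma induces, stood at 98.8 and 286.3 CPM and at 127 and 276.8 CPM. IFIT2, a binder of viral RNA, stood at 190.3 and 27.5 CPM, 6.91-fold lower (log2 ratio -2.79, interval -2.84 to -2.74). IFIT1 stood at 11.2 and 3.85 CPM, IFIT3 at 37.2 and 14.4 CPM and the ubiquitin-like ISG15 at 97.8 and 41.2 CPM. Other antiviral genes stood close to their level before therapy, among them MX1 at 66.9 and 85.6 CPM and OAS1 at 60.6 and 54.9 CPM. OAS3, of the same family as OAS1, stood at 23.5 and 51.6 CPM.

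Homing receptors had more members past 2-fold on the lower side than on the higher side. Of 24 detected members, 3 were at least 2-fold higher and 6 lower, against 10.7% and 10.5% of all genes. The median was -0.18. CXCR4 (ENSG00000121966, chromosome 2: 136114349 to 136118165), the receptor for CXCL12 in bone marrow, stood at 224.5 CPM before and 844.8 CPM after therapy, 3.76-fold higher (log2 ratio 1.91, interval 1.89 to 1.93). CXCR3, which guides T cells to interferon-induced chemokines, stood at 79.8 and 34.8 CPM, and CXCR5, the receptor of B cell follicles, at 21.4 and 6.93 CPM. The interleukin-8 receptors CXCR1 and CXCR2 stood at 15.1 and 5.09 CPM and at 25.6 and 9.01 CPM. Neutrophils express both, and the monocyte and neutrophil markers were higher after therapy. Which cells the CXCR1 and CXCR2 transcripts came from was not tested. S1PR1, a sphingosine phosphate receptor of lymph node egress, stood at 157.6 and 145.7 CPM.

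Integrin genes had a median of -0.01 over 21 members, with 2 at least 2-fold higher and 3 lower. ITGA6, a laminin receptor chain, stood at 28 and 129.3 CPM, and CD44, the hyaluronan receptor, at 385.5 and 842.2 CPM (log2 ratio 1.13, and 0.85 adjusted for gene length). ITGA4, the alpha chain of VLA-4, stood at 363.3 and 684.7 CPM. NK receptors had a median of -0.29 over 17 members, with 2 at least 2-fold higher and 2 lower. KLRF1, an activating receptor, stood at 96.2 and 209.2 CPM, while KLRC1, the gene of the inhibitory NKG2A, stood at 33.5 and 13.1 CPM and NCR3, the gene of NKp30, at 92.9 and 37.9 CPM. NCAM1, the CD56 gene that marks NK cells, stood at 4.29 and 10.2 CPM.

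Proliferation genes were lower after therapy. Of 41 detected members, 2 were at least 2-fold higher and 16 lower, against 10.7% and 10.5% of all genes, with a median of -0.69 and 29 members below 0. Most stood under 20 CPM in both libraries. Over all genes at such levels, 903 of 4407 with a mean of 1 to 5 CPM were at least 2-fold lower. Of those with a mean of 5 to 20 CPM, 281 of 3977 were. MKI67, a marker of cycling cells, stood at 18.2 CPM before and 9 CPM after therapy. TK1 and TYMS, enzymes of thymidine nucleotide synthesis, stood at 18.1 and 4.27 CPM and at 18.2 and 8.73 CPM, and RRM2, a subunit of ribonucleotide reductase, at 20.3 and 6.75 CPM. CDC6, which loads the replicative helicase, stood at 7.21 and 1.93 CPM, and the mitotic activator CDC20 at 10.4 and 3.75 CPM. The helicase subunits did not follow as a group: MCM4 stood at 16.9 and 44.9 CPM, MCM2 at 17.4 and 34.8 CPM, and MCM7 at 116.4 and 74 CPM. Epithelial and matrix transcripts were lower in the same library, and which cells the proliferation transcripts came from was not tested.

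The apoptosis list had a median of -0.02 over 31 detected members. Of them, 5 were at least 2-fold higher and 1 lower, against 10.7% and 10.5% of all genes. The higher members included both survival and death genes. MCL1 and BCL2, which protect cells, stood at 177.3 and 444.1 CPM and at 21.3 and 51.4 CPM, and BCL2L11, the gene of the death-promoting BIM, at 14.4 and 44.5 CPM. BOK, a BCL2 family member, stood at 6.34 and 0.594 CPM. DNA methylation genes had a median of -0.24 over 17 detected members with 0 past 2-fold in either direction. DNMT1, the maintenance methyltransferase, stood at 119.7 and 113 CPM, and TET2, which oxidises methylcytosine, at 71.2 and 60.4 CPM.

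Stress and metabolic genes differed little as lists. The heat shock and unfolded protein response list had a median of 0.15 over 28 members, with 2 at least 2-fold higher and 3 lower. DNAJB1, a co-chaperone, stood at 251.4 and 601.5 CPM, while the small heat shock gene HSPB1 stood at 18.5 and 6.79 CPM and BAG3, a partner of HSP70, at 9.96 and 3.72 CPM. Glycolysis genes had a median of 0.02 over 24 members. Of them, 3 were at least 2-fold higher and 0 lower, against 10.7% and 10.5% of all genes. PFKFB3, an activator of glycolytic flux, stood at 9.22 and 23.4 CPM. The enzymes TPI1 and GAPDH, which act in the middle of the pathway, stood at 577.1 and 330.3 CPM and at 1935 and 1278 CPM. MHC class II genes, which activated human T cells also express, had a median of 0.02 over 11 members with 0 past 2-fold. Their master regulator CIITA stood at 33.1 and 33.6 CPM.

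Ribosomal protein and respiratory chain genes were slightly lower after therapy in most members. Of 77 cytosolic ribosomal protein genes, 0 were past 2-fold, 71 were below 0 and the median was -0.38. RPL11 of the large subunit stood at 211.2 CPM before and 124 CPM after therapy, and RPS14 of the small subunit at 926.1 and 575.5 CPM. Of 76 nuclear-encoded respiratory chain genes, 1 was at least 2-fold higher, 1 was lower and 62 were below 0, with a median of -0.34. COX6A1, a subunit of cytochrome c oxidase, stood at 249.3 and 146.7 CPM. Proteasome genes had a median of -0.20 over 38 members with 0 at least 2-fold higher and 1 lower, and mitochondrially encoded genes a median of -0.20 over 33 detected members (0.04 adjusted for gene length). Ribosomal protein genes and their processed pseudogenes are near-copies, and how the deposited counts shared such reads is not given in the sources used here.

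The ratio also followed the gene length that the files list. In 10 classes of that length, equal in gene number, the median log2 ratio of genes with at least 5 CPM went from -0.25 at a median length of 665 bases to 0.30 at 8497 bases and 0.28 at 11893 bases. In the non-responder pair it went from -0.19 to 0.21 between the shortest and the longest class. With each ratio taken relative to the median of its class, the ribosomal protein median was -0.34 and the respiratory chain median -0.27. The same adjustment gave 0.60 for the immediate early list, -0.74 for the proliferation list and 0.25 for the effector factor list. Zinc finger genes named ZNF and a number, mostly long, had a median of 0.31 over 411 detected members, and 0.15 after the adjustment. Of these members 49 were at least 2-fold higher and 19 lower, against 10.7% and 10.5% of all genes.

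**Figure D4:**
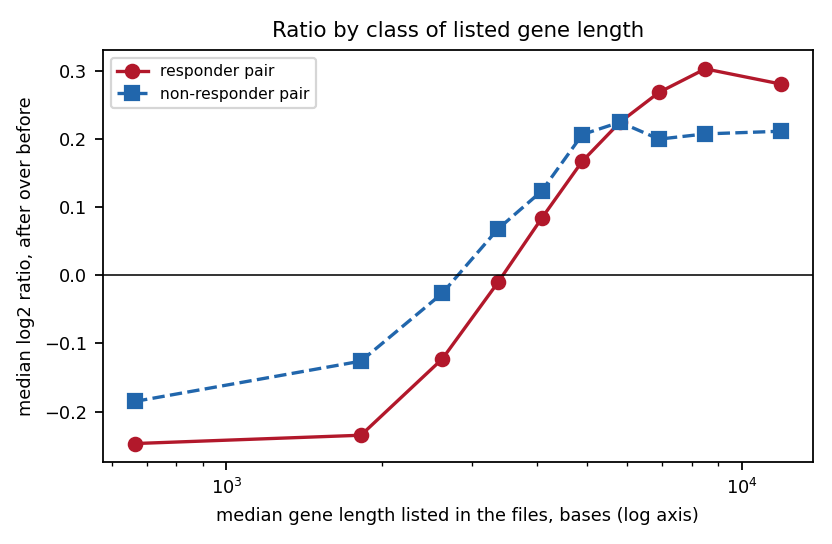
Median log2 ratio, after over before therapy, by class of listed gene length (horizontal, median length in bases, log axis) for genes with at least 5 CPM in the responder pair, drawn for the responder and the non-responder pair. In the responder pair the median goes from -0.25 in the shortest class to 0.28 in the longest.

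Markers of monocytes and neutrophils were higher after therapy in the responder, 21 of 22 by at least 2-fold, with a median of 3.17. LYZ (ENSG00000090382, chromosome 12: 69348341 to 69354234), the lysozyme gene, stood at 8.29 CPM before and 798.6 CPM after therapy, 96.3-fold higher (log2 ratio 6.59, interval 6.48 to 6.70). The calcium-binding alarmins S100A8 and S100A9 stood at 25.2 and 270.1 CPM and at 33.9 and 339.2 CPM, and the lectin gene FCN1 at 11.7 and 174.4 CPM. CD14, the monocyte co-receptor for lipopolysaccharide, stood at 6.47 and 54.9 CPM. LILRA5 was the member that did not pass, at 2.11 and 2.02 CPM. In the non-responder pair the summed level of the list was 223.7 CPM before and 10413 CPM after therapy. Dendritic cell markers were low: 8 of 12 stood under 1 CPM before and 6 after therapy, and CLEC9A had no count in either responder library. Their summed level, 1326 CPM before and 901.7 CPM after therapy, was mostly GZMB, which plasmacytoid dendritic cells share with cytotoxic T cells.

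Markers of epithelia and matrix went the opposite way in the responder. Of 20 detected members, 0 were at least 2-fold higher and 18 lower, and 11 of the 24 on the list had no count after therapy. KRT19 (ENSG00000171345, chromosome 17: 41523617 to 41528308), a keratin of simple epithelia, stood at 55.7 CPM before therapy and had no count after it, at least 2344-fold lower against a floor of 3 counts in the library without a count. The keratins KRT7, KRT8 and KRT18 stood at 53.1, 41.5 and 42.6 CPM before and at 0.0634, 0.594 and 0.555 CPM after therapy. FN1, the gene of fibronectin, stood at 100.7 and 1.42 CPM, 71-fold lower. EPCAM, an epithelial adhesion molecule, stood at 4.73 CPM before therapy and had no count after it. In the non-responder pair the summed level was 67.8 CPM before and 157.2 CPM after therapy, but members differed in direction. The keratins KRT7, KRT8, KRT18 and KRT19 were lower after therapy there as well. KRT7 stood at 3.39 and 0.0269 CPM, and KRT19 at 3.04 CPM before therapy with no count after it. CLDN7, another member, stood at 0.573 and 1.46 CPM.

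**Figure D5:**
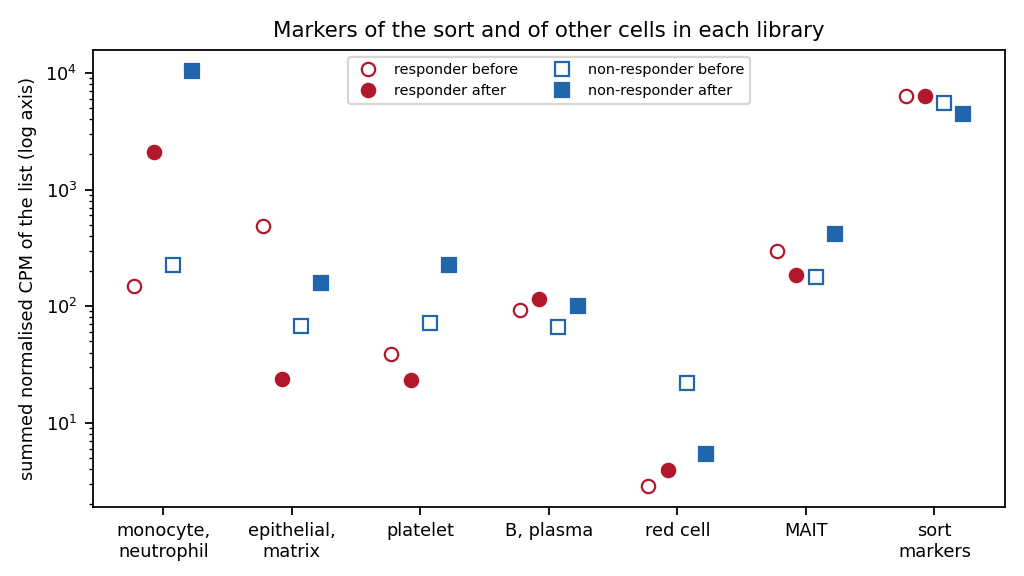
Summed normalised CPM (log axis) of the sort markers and of 6 marker lists of other cells in each of the 4 libraries, with open symbols before and filled symbols after therapy, circles for the responder and squares for the non-responder. The sort markers stand at 6391 and 6354 CPM in the responder, the monocyte and neutrophil markers at 147.8 and 2094 CPM and the epithelial and matrix markers at 489.7 and 23.7 CPM.

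B cell and plasma cell markers were divided. Of 10 detected members, 2 were at least 2-fold higher and 7 lower, with a median of -1.82 that turned to 1.32 over the 3 members with at least 10 CPM. MS4A1, the CD20 gene, stood at 25.1 and 77.5 CPM, while CD79B, a chain of the B cell receptor complex, stood at 28.5 and 7.85 CPM. Platelet markers had a median of -0.75 over 9 detected members, with 1 at least 2-fold higher and 4 lower and a summed level of 38.5 and 23.2 CPM. PPBP, a platelet chemokine, stood at 10.9 and 4.95 CPM. Red cell markers summed to 2.87 and 3.94 CPM and mast cell and basophil markers to 2.91 and 4.68 CPM. CD4 stood at 4.5 and 11.6 CPM, and FOXP3, the factor of regulatory T cells, at 2.03 and 1.63 CPM. The list of CD4 and regulatory markers had a median of 0.55 over 9 detected members (0.44 by library size alone), with 2 at least 2-fold higher and 1 lower. Monocytes also carry CD4.

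Markers of mucosal-associated invariant T (MAIT) cells, innate-like cells that also bear CD8, were lower after therapy in the responder. Of 10 members, 0 were at least 2-fold higher and 6 lower, against 10.7% and 10.5% of all genes. The median was -1.34 and the summed level 294.3 and 186.2 CPM. SLC4A10, a transporter typical of these cells, stood at 20.3 CPM before and 7.61 CPM after therapy. KLRB1, the CD161 gene, stood at 73.8 and 57.9 CPM. In the non-responder pair SLC4A10 stood at 3.35 and 16.5 CPM and the list had a median of 2.65. The gamma-delta T cell list had a median of -0.30 over 6 members with 0 at least 2-fold higher and 2 lower; its constant gene TRDC stood at 60.9 and 94.8 CPM.

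Where the higher library held at least 5 CPM and 50 reads, many of the largest ratios belonged to genes with a count of 0 on one side. Of the genes with at least 5 CPM, 6 had a count only after and 38 only before therapy. The 6 were CD86, TFEC, VNN1, DOK3, VSIG4 and NFAM1. CD86, a costimulatory ligand of antigen-presenting cells, stood at 14 CPM after therapy, at least 388-fold higher against a floor of 3 counts in the library without a count. VSIG4 is a complement receptor of macrophages, and TFEC a factor of the myeloid lineage. Among the 38 were KRT19, PLAU, an activator of plasminogen cleavage, at 39.1 CPM before therapy, and COL1A1, a chain of type I collagen, at 19 CPM. With 1 ng of RNA per library, a transcript that was not captured also gives a count of 0.

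Among genes with at least 100 CPM in the higher library, 4 of the 12 with the largest ratios were the monocyte and neutrophil markers LYZ, FCN1, S100A8 and S100A9. The others were SOCS3, PDE4B, ITGA6, EDEM1, TMEM2, CCND2, IFI30 and ZFP36L2. PDE4B, a phosphodiesterase that breaks down cAMP, stood at 46.6 CPM before and 221.5 CPM after therapy, and CCND2, a cyclin of the G1 phase, at 99.2 and 397.2 CPM. IFI30, a thiol reductase of antigen processing that myeloid cells express, stood at 40.9 and 161.9 CPM. On the lower side stood FN1, IFIT2, ZNF683, JUN, RNA28S5, CCR7, HIST1H1E, NEAT1, FGFBP2, DDX17, ARL16 and MT-RNR1. The ribosomal RNA entry RNA28S5 stood at 224.5 and 54.3 CPM, and the nuclear RNA NEAT1 at 217.6 and 83.5 CPM. HIST1H1E, a linker histone gene, stood at 117.2 and 38.6 CPM, and DDX17, an RNA helicase, at 180.8 and 74.5 CPM.

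Set beside the non-responder pair, which shares no library with it, many of the responder's differences had the same direction. Of 11670 genes that reached 5 CPM in both pairs, 969 stood at least 2-fold higher in the responder, and 475 of these, or 49.0%, were also higher in the non-responder, where 14.3% of all these genes were higher. Seen from the other list, the 475 were 28.5% of the 1664 genes higher in the non-responder. Of 401 genes lower in the responder, 170 or 42.4% were lower in the non-responder, where 6.20% of all these genes were lower, and they were 23.5% of its 723 lower genes. Across the 11670 genes, which are not independent replicates, the log2 ratios of the pairs had a Pearson correlation of 0.509 and a Spearman correlation of 0.488. Both pairs share the times, the depth gap, the length trend and a PD-1-positive tag on the earlier library only. The summed monocyte and neutrophil markers were also higher after therapy in both pairs. The part of each in the overlap was not tested. CXCR4, CD69 and ZFP36L2 were higher after therapy in both. In the non-responder they stood at 534.2 and 1229 CPM, at 867.6 and 1695 CPM and at 1295 and 3000 CPM.

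Other values stood apart between the pairs, without a test of the difference. The immediate early list had a median of 0.70 in the responder and 0.03 in the non-responder, where members lay on both sides of 0. In the non-responder DUSP2 stood at 1994 and 1778 CPM, while FOS stood at 808.5 and 2860 CPM and DUSP1 at 1282 and 4203 CPM. The homing receptor list had medians of -0.18 and 0.97. CX3CR1 stood at 76.9 CPM before and 162.9 CPM after therapy in the non-responder, the opposite direction to the responder. CCR7 stood at 60.7 and 61.1 CPM there, and TNF at 43.3 and 33.3 CPM. For PDCD1 the non-responder libraries stood at 4.9 and 7.9 CPM, under both responder libraries.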

How the data were processed

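Per the labels' protocols, total RNA of sorted CD8+ T cells with high CD11a was amplified as cDNA (SMARTer Ultra Low kit) and sequenced as paired reads of 101 bases. Per the submitters' processing notes, bcl2fastq 1.8.4 converted base calls and TopHat2 aligned reads to hg38. For the counter, the annotation release and the strand setting, nothing is given in the sources used here; reads of overlapping and antisense genes may therefore be mixed. Raw counts were deposited by the authors for 64253 genes per library, per the file headers. No molecular identifier is stated, so intervals and floors cover counting error only.

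Genes on other contigs (4146) and sex-informative genes (617) were left out, which leaves 59490, while library sizes keep all counts. TMM factors over the 4 libraries came from edgeR 4.0.16 in R 4.3.3, and no count model was fitted since each group holds 1 library. The log2 ratio used a prior count of 0.5, and its interval is the exact conditional binomial one at 95%. Against a count of 0, a fold is a bound at a floor of 3 counts in that library, 0.0362 CPM before and 0.0238 CPM after therapy in the responder. The ratio and interval code was tested on simulated data. Python 3.11.15, pandas 2.3.3, scipy 1.17.1 and matplotlib 3.10.9 were used. Lists hold members with at least 1 CPM in either library of a pair, and a gene symbol on 2 entries was read from the entry with the lowest identifier. Lists share some members.

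The members and lists were chosen with earlier results of these data known. Genes named are the sort markers, up to 4 members of each list by size of ratio, the top 12 per direction over all genes, the top 12 per direction with at least 100 CPM, and 5 per direction that were at least 2-fold apart in opposite directions in the pairs. Except for the sort markers and the set with at least 100 CPM, these needed 5 CPM and 50 reads or more in the higher library. Receptor segment, HLA and KIR genes, and genes whose level follows common inherited copy number variants, were not named under the parts over all genes. Other list members, such as PDCD1, PRF1 and FOS, were chosen for their known roles with their values already seen. Alternatives were other scaling (DESeq2 1.42.0 size factors, library size, TMM over the responder libraries), filters, a prior count of 5, the whole interval beyond 2-fold, equal depth, adjustment for gene length, and leaving out lists of other cells. A few genes that fall under these rules are left unreported. No sequence is printed, since the genome at hand was of mouse.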

Additional observations from a re-analysis of the deposited data

Results flagged for a closer look

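Some genes were at least 2-fold apart in both pairs but in opposite directions, 11 of them higher in the responder and lower in the non-responder after therapy and 31 the reverse. This count covers genes open to naming that reached 5 CPM and 50 reads in each pair. They stand here because the pairs differ in direction. With 1 library per group the difference was not tested. For each direction, the 5 genes whose weaker ratio was largest are given.

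MDGA1, a membrane protein with immunoglobulin domains, had a log2 ratio, after over before therapy, of 1.64 in the responder and -6.07 in the non-responder. The ratios were 1.30 and -2.13 for ENC1, an actin-binding protein, and 1.22 and -2.32 for DUSP4, a phosphatase that acts on MAP kinases. The zinc finger genes ZBTB39 and ZBTB26 had ratios of 1.37 and -1.28, and of 1.20 and -1.68. ENC1 stood at 15.4 and 38 CPM in the responder and at 100.7 and 23 CPM in the non-responder.

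On the other side, CTSL, the lysosomal protease cathepsin L, had a log2 ratio of -2.77 in the responder and 9.50 in the non-responder. SIGLEC7, an inhibitory receptor of NK cells and monocytes, had ratios of -1.82 and 2.64, and IL23R, which is also on the MAIT list, -2.05 and 3.83. TRIM66 had ratios of -2.32 and 1.93, and GAS6, a ligand of TAM receptors, -1.70 and 1.90. SIGLEC7 stood at 14.8 and 4.21 CPM in the responder and at 2.7 and 16.9 CPM in the non-responder. Monocyte and MAIT marker levels also differ between these libraries, and their part in these ratios was not tested.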

How the results depend on the processing

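The counts at least 2-fold higher (1064) and lower (566) stayed within 1.5 times under the other scalings, a prior count of 5, the whole interval beyond 2-fold, equal depth, the length adjustment and without the lists of other cells. They followed the filter. With at least 1 CPM, 1822 genes were higher and 1791 lower, with no filter 6661 and 8398, and with at least 10 CPM 301 were lower. The share of higher genes, 65.3% in the main count, was 50.4% with at least 1 CPM, 73.4% with at least 10 CPM, 44.2% with no filter and 58.4% adjusted for gene length.

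Of 10 lists whose median was at least 0.5 in size, 1 turned its sign: the B cell and plasma cell median of -1.82 was 1.32 over the members that reached 10 CPM. Of the same lists, 2 came back inside 0.5, the cytokine receptors and the CD4 and regulatory markers. Of the other 28 lists, 9 had a median of the other sign under at least 1 alternative, all with a main median of at most 0.33 in size. Of 129 single genes past 2-fold, 0 reversed and 13 came back inside: CD44, RAB27A, NDUFB7, PSMB5, DUSP4, NDUFA5, IL6ST, NCAM1, PPBP, BCL2, MT-TL1 and MT-RNR1 adjusted for gene length, and IRF1 with that adjustment (0.74) and by library size alone (0.94). Why these values changed was not tested.

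No paired analysis was possible because each group holds 1 library and the labels do not tie the libraries to patients. Leaving out a replicate was not possible for the same reason. Depth limits genes near the floor of 3 counts, which is 0.0362 CPM before and 0.0238 CPM after therapy in the responder. Genes with a mean of 1 to 5 CPM lie above that floor, and 36.2% of them were past 2-fold. The reason for that share was not tested.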
